A study of Mus musculus with 24 samples.

Results

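The 10 skeletal muscle genes described here were read at low levels in RNA from mouse spinal cord: Acta1, Tnnt3, Tnni2, Myh4, Myh2, Mylpf, Actn3, Atp2a1, Ckm and Mb. They are 10 of the 55418 gene rows of the deposited count table, taken by symbol, and all 10 had enough reads to be tested. The list was selected on measured values: earlier results of these data had shown skeletal muscle genes far above the other libraries in 1 library and present at uneven levels elsewhere. Their levels are therefore given as a description, and p-values for them are no independent evidence that muscle genes differ between libraries.

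The tissue was the L4-L6 spinal cord of male and female C57BL/6J mice aged 8 to 10 weeks at the start, taken on day 7 after the first injection. The mice were myeloid-specific Chrna7 knockouts (Chrna7-cKO), which lack the alpha7 nicotinic acetylcholine receptor in cells of the myeloid lineage, or wild type (WT); which promoter drives the deletion was not stated in the labels. Mice of both genotypes received paclitaxel, a microtubule-binding chemotherapy drug, at 1 mg/kg in 4 injections every other day, or its vehicle. Genotype, treatment and sex were crossed in 8 groups of 3 mice, with 1 library per mouse and 24 libraries in all. The libraries carry numbers from 1 to 24. Numbers 13-24 hold the paclitaxel-treated females and the vehicle-treated males of both genotypes, and numbers 1-12 hold the paclitaxel-treated males and the vehicle-treated females. A difference between these number ranges therefore cannot be told apart from a paclitaxel response that differs between the sexes, while genotype is balanced within each range.

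Skeletal muscle contracts when myosin heads of the thick filament pull on actin of the thin filament, under the control of calcium acting on the troponin complex. Fast and slow fibres use different myosin heavy chains, troponins, light chains and calcium pumps, so these genes also tell fibre types apart: among the fast myosins, Myh4 marks glycolytic type IIB fibres, Myh1 type IIX and Myh2 the more oxidative type IIA. The spinal cord holds no skeletal muscle fibres, but lies inside the vertebral column, along which the muscles of the back run.

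Library depth was 88812295 to 112158154 counts on genes, and 22024 to 23269 genes had at least 10 counts. A gene with 0 counts could be present at up to 0.0267 to 0.0338 CPM (counts per 1000000 counts on genes), the level of 3 counts, if each count is independent. Library 23, the third replicate of WT female paclitaxel, stood apart from the rest. In it all 10 genes of a sensory neuron list were above every other library, while all 6 astrocyte, all 6 oligodendrocyte, all 6 microglia and all 5 inhibitory neuron genes were below every other library. Of 6 motor neuron genes, 4 were below every other library, and Isl1 and Prph were above. Library 23 was kept out of every comparison below unless named. The other 23 libraries showed these cord markers. Chrna7 itself was at 9.09 to 14.5 CPM in the 12 Chrna7-cKO libraries and 9.38 to 15.9 CPM in the 11 WT libraries, ranges that overlap; in whole tissue this does not check a deletion limited to myeloid cells, and library 23 had 48.1 CPM.

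Promoter sequence was at hand for 7 of the 10 genes in the RefSeq table (GRCm38.p6); Actn3, Tnnt3 and Tnni2 had no entry. The windows of Acta1, Myh4 and Ckm are shown because these genes varied together across libraries and stand for the thin filament, the thick filament and energy supply. Each runs 5′ to 3′ on the gene's own strand from 250 bases before to 50 bases after the annotated start. Capitals mark 2 motifs known from muscle genes: the E-box CANNTG, bound by myogenic factors such as MyoD, and the CArG box, bound by serum response factor.
Acta1, chr8:123894726-123895025, minus strand: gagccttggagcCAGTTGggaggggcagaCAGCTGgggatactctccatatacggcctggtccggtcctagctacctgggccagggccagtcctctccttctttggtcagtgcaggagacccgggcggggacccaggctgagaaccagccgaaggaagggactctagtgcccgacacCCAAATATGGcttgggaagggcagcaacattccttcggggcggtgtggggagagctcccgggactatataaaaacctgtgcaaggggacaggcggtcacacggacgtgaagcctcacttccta
Myh4, chr11:67237562-67237861, plus strand: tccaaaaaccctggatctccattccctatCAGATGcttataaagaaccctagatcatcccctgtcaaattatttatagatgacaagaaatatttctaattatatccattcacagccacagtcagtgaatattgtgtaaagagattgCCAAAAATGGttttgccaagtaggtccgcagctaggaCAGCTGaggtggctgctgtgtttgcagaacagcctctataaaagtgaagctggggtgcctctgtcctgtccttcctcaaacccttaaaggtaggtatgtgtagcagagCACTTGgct
Ckm, chr7:19410844-19411143, plus strand: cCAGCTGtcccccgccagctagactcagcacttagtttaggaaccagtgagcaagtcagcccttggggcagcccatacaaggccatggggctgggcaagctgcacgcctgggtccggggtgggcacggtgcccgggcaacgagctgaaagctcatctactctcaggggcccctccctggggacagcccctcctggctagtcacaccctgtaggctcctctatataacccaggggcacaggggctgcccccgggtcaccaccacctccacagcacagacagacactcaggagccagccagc
The Acta1 window holds 2 E-boxes and 1 CArG box, the Myh4 window 3 E-boxes and 1 CArG box, and the Ckm window 1 E-box. Both strands were searched, and the motifs did not overlap in these windows. E-boxes are frequent: 72.3% of 32851 promoter windows of the same length hold at least 1, as do 6 of the 7 genes with a window. The MEF2 motif was searched as well, and is in 0.557% of all windows and in 0 of the 7 genes. A CArG box is in 1.63% of all windows and in 2 of the 7 genes. These are matches of letters and not sites shown to be used.

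By the GENCODE annotation of GRCm38, the build of the count table, 5 of the 10 genes are on chromosome 7: Ckm at chr7:19404776-19422841, Atp2a1 at chr7:126445858-126463108, Mylpf at chr7:127208890-127214298, Tnni2 at chr7:142441808-142444410 and, close to it, Tnnt3 at chr7:142498836-142516009. The fast myosins form a cluster, with Myh2 at chr11:67171027-67197517, Myh1 at chr11:67200052-67224575 and Myh4 at chr11:67238029-67260446. Acta1 is at chr8:123891769-123894751, Mb at chr15:77015487-77050670 and Actn3 at chr19:4861216-4877909. All counts are over the exons of these genes.

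In the 23 spinal cord libraries the members were present at medians of 0.106 to 2.12 CPM, and library 23 held between 1.32 and 14.7 times the highest of the other libraries. The thin filament genes came first. Acta1, the skeletal muscle alpha-actin, was at 66.5 CPM in library 23, and at 0.304 to 7.94 CPM with a median of 1.20 CPM in the other 23. Tnnt3, the fast troponin T that ties the troponin complex to tropomyosin, was at 101 CPM in library 23, and at 0.220 to 8.29 CPM with a median of 0.704 CPM in the other 23. Tnni2, the fast inhibitory troponin, was at 44.9 CPM in library 23, and at 0.147 to 3.53 CPM with a median of 0.445 CPM in the other 23. For all 3 genes library 23 lay far outside the range of the rest, and the rest themselves spanned 24.1-fold (Tnni2) to 37.6-fold (Tnnt3).

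Of the thick filament, Myh4, the type IIB heavy chain, was at 150 CPM in library 23, and at 0 to 11.6 CPM with a median of 0.458 CPM in the other 23. Its 0 was in library 14 (Chrna7-cKO female paclitaxel, replicate 1), where the limit set by depth was 0.0320 CPM. Myh2, the type IIA heavy chain, had the lowest median of the 10 members over the other 23 libraries, with 6.11 CPM in library 23, and 0.0110 to 1.55 CPM with a median of 0.106 CPM in the other 23. Mylpf, the fast regulatory light chain, was at 53.8 CPM in library 23, and at 1.14 to 4.62 CPM with a median of 2.12 CPM in the other 23. Myh4 was thus the most variable of these 3 across cords and Mylpf the least. Myh4 and Myh2 share sequence with each other and with Myh1: 18.9% of the 50-base stretches of Myh4 exons and 24.6% of those of Myh2 occur in another gene, so reads there were lost or could be split.

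Actn3, the fast-fibre alpha-actinin that anchors actin at the Z disc, was at 38.6 CPM in library 23, and at 0.935 to 3.17 CPM with a median of 1.33 CPM in the other 23. Atp2a1, the fast calcium pump of the sarcoplasmic reticulum, was at 53.7 CPM in library 23, and at 0.1802 to 3.65 CPM with a median of 0.383 CPM in the other 23. Ckm, the muscle creatine kinase that buffers ATP, was at 40.7 CPM in library 23, and at 0.0624 to 4.08 CPM with a median of 0.385 CPM in the other 23. Mb, the oxygen store myoglobin of oxidative fibres, was the exception: 3.78 CPM in library 23 stood only 1.32-fold above the highest of the other 23, which ran over 0.363 to 2.86 CPM with a median of 0.683 CPM. Exons of Ckm, Mb and Atp2a1 overlap other genes over 15.5%, 31.9% and 21.9% of their bases, and strand was not used in counting, so part of their reads may be lost.

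**Figure D1:**
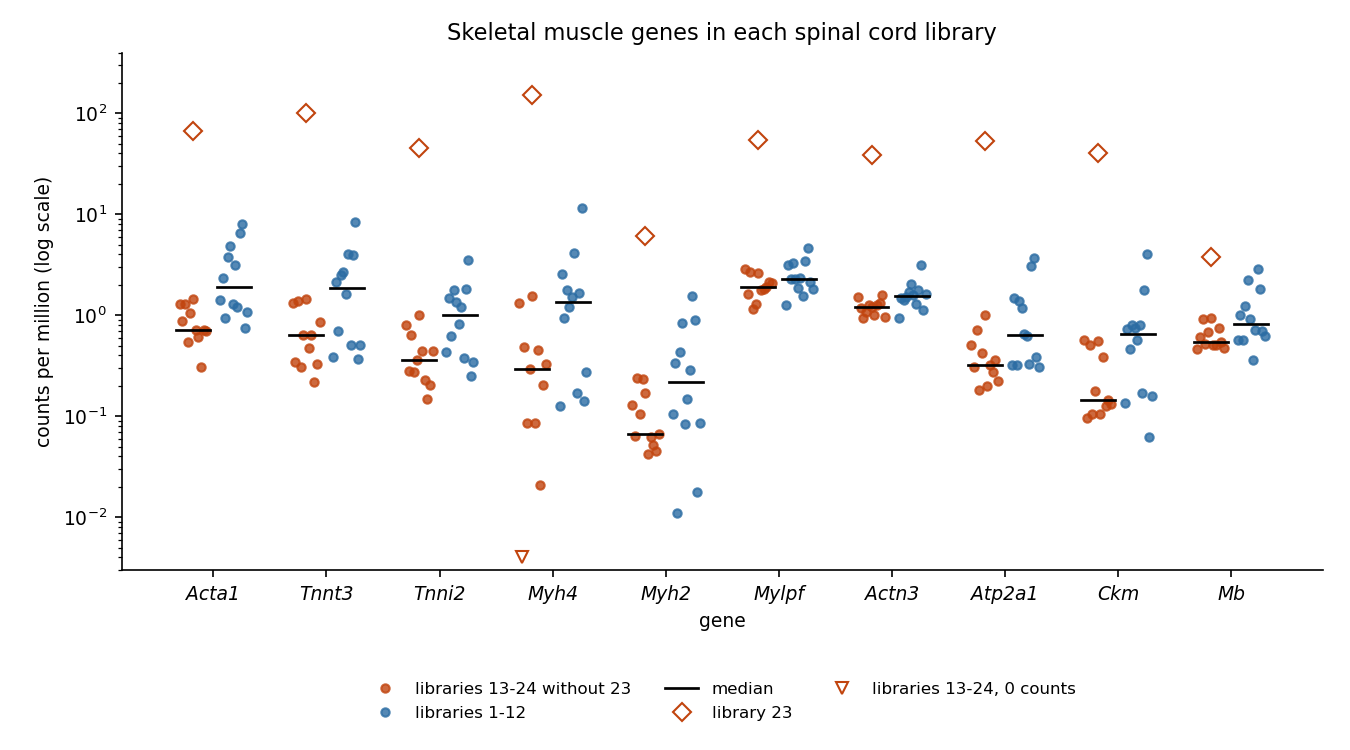
CPM of each gene (log axis) in every library, with libraries 13-24 left of libraries 1-12, each point 1 mouse and bars at the median. Library 23 (open diamonds) is above every other library for all 10 genes, least so for Mb; the open triangle at the foot is the library with 0 Myh4 counts.

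Per kilobase of exon, which allows genes to be set beside each other, the order in library 23 was led by Tnnt3 at 63.6, Mylpf at 50.7, Acta1 at 43.3, Tnni2 at 29.97 and Myh4 at 24.995 CPM per kilobase. Library 10 (Chrna7-cKO male paclitaxel, replicate 3), the richest of the other 23, was led by the same genes in another order, with Tnnt3 at 5.24, Acta1 at 5.17 and Mylpf at 4.35 CPM per kilobase. Over the 23 libraries the medians were led instead by Mylpf at 2.00, Acta1 at 0.779 and Actn3 at 0.459 CPM per kilobase, with Mb next at 0.458.

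The members differed in how low they were where Myh4 was lowest. In the 8 libraries with the least Myh4, at most 0.202 CPM, Ckm was at 0.0624 to 0.169 CPM, and so more than an order of magnitude below library 10. In the same 8 libraries Tnnt3 was at 0.220 to 0.508 CPM, Tnni2 at 0.147 to 0.445 CPM, Atp2a1 at 0.1802 to 0.383 CPM and Myh2 at 0.0178 to 0.286 CPM. Acta1, at 0.304 to 1.42 CPM, reached above its median of 1.20 CPM. Mylpf was at 1.14 to 2.12 CPM, Actn3 at 0.940 to 1.596 CPM and Mb at 0.509 to 0.756 CPM. Mylpf, Actn3 and Mb varied least from the lowest to the highest of the 23 libraries, by 4.04-fold for Mylpf, 3.39-fold for Actn3 and 7.89-fold for Mb, against 20.2-fold (Atp2a1) to 65.4-fold (Ckm) for Acta1, Tnnt3, Tnni2, Atp2a1 and Ckm. Myh4 had 0 counts and Myh2 had 1 count in its lowest library, and no such fold is given for them. In whole tissue, fewer cells that express a gene and less RNA per cell cannot be told apart.

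Summed over the 10 genes, library 23 held 559 CPM. Of the other 23, library 10 was highest at 49.6 CPM, library 9 (WT female vehicle, replicate 3) had 28.4 CPM, and library 5 (WT female vehicle, replicate 2) had 19.005 CPM. Library 4 (Chrna7-cKO female vehicle, replicate 1) had 18.5 CPM, library 7 (WT male paclitaxel, replicate 2) 18.3 CPM and library 2 (Chrna7-cKO male paclitaxel, replicate 1) 16.7 CPM. These 6 highest libraries come from 4 groups and both genotypes, treatments and sexes, and all 6 are in the range 1-12. The lowest was library 16 (Chrna7-cKO male vehicle, replicate 1) at 4.34 CPM. Replicates of 1 group could differ widely: the Chrna7-cKO male paclitaxel libraries summed to 16.7, 11.3 and 49.6 CPM, and the WT female vehicle libraries to 5.72, 19.005 and 28.4 CPM.

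**Figure D2:**
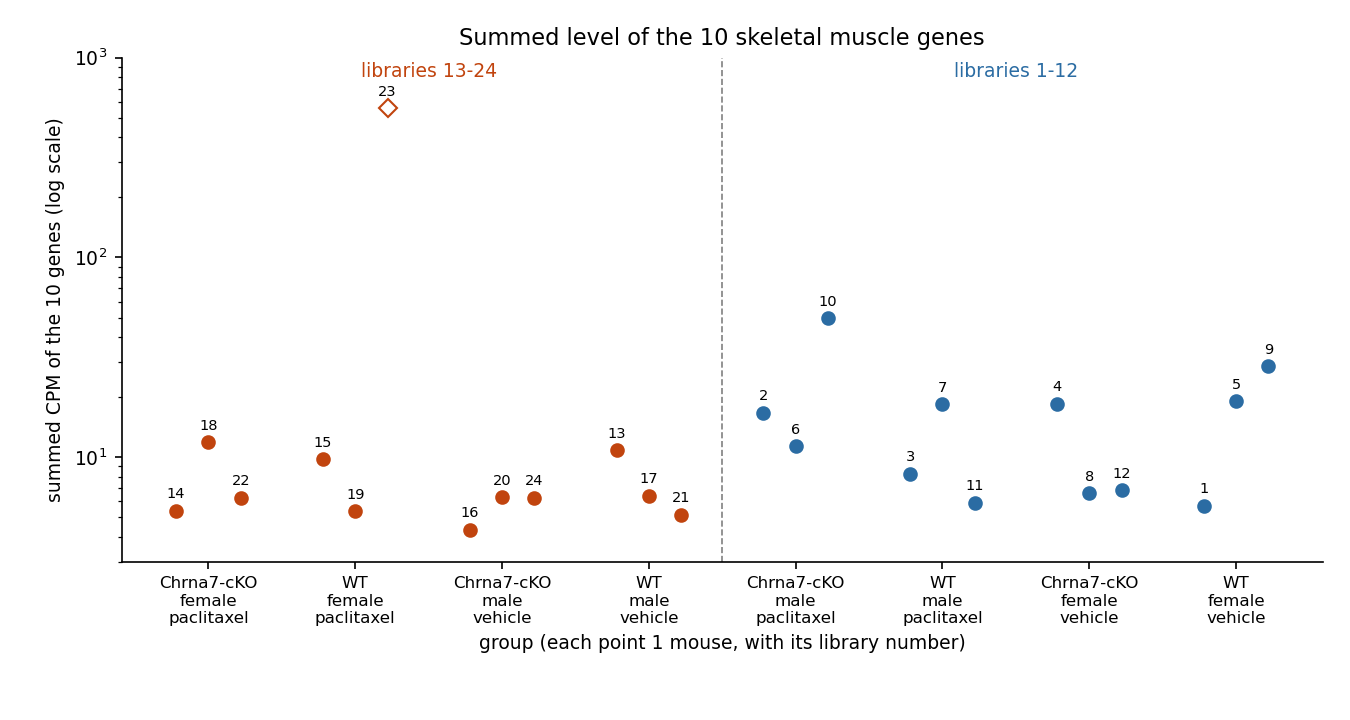
Summed CPM of the 10 genes (log axis) in each library, by group, with the library number above each point. Library 23 is at 559 CPM. The other 11 libraries numbered 13-24 lie between 4.34 and 11.9 CPM, and the libraries numbered 1-12 spread over 5.72 to 49.6 CPM across their 4 groups.

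The members' levels varied together from library to library. Across the 23 libraries, which share tissue and a similar depth, the log2 level of each correlated with the mean of the other 9 at Pearson's r of 0.70 (Actn3) to 0.96 (Tnnt3, Ckm). Library 10 was the highest of the 23 for 8 genes, and library 9 for the other 2, Mb and Myh2. Ranked over 22391 genes by their correlation with the members' mean, the 15 most alike genes outside the list included many parts of the muscle fibre: Myoz1, a Z-disc protein of fast fibres, and Trdn, the triadin of the calcium release complex, both at r = 0.92; Myl1, the fast essential light chain, at 0.90; and Myot, the Z-disc protein myotilin, at 0.88. Then came Igfn1, Ckmt2 and Tcap at 0.86, Mylk2 at 0.84, Ttn and Xirp2 at 0.83, Myh1 and Neb at 0.81, Des at 0.78, Smpx at 0.74 and Ppp1r3a at 0.73. Of these 15, 11 stand in the muscle lists used here; Igfn1, Mylk2, Smpx and Ppp1r3a do not. These are descriptions over 23 libraries.

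No member passed the test for genotype. The summed level ran over 4.34 to 49.6 CPM with a median of 6.72 CPM in 12 Chrna7-cKO libraries, and over 5.14 to 28.4 CPM with a median of 8.26 CPM in 11 WT libraries, so that the ranges overlapped almost fully. By edgeR's quasi-likelihood test, 0 of 10 members passed an adjusted p of 0.05, while 3 of 25372 genes passed (0.0118%) and 852 had an unadjusted p under 0.05; none of the 10 members was among these. The log2 fold changes of Chrna7-cKO over WT lay between -0.10 (Tnnt3, SE 0.56) and 0.33 (Myh4, SE 0.79), with a median of 0.03, and each edgeR adjusted p was 0.9997. For Myh4 the SE was larger than the estimate, so this depth and number of mice leave room for a change in either direction.

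No member passed for paclitaxel against vehicle either. The summed level was 5.36 to 49.6 CPM with a median of 9.77 CPM in 11 paclitaxel libraries, and 4.34 to 28.4 CPM with a median of 6.51 CPM in 12 vehicle libraries. Again 0 of 10 members passed edgeR's test at an adjusted p of 0.05, beside 5 of 25372 genes (0.0197%), and the members' adjusted p-values were 0.714 to 0.964. The log2 estimates were above 0 for 8 of 10 members, beside 13416 of 25372 genes, and the members' median was 0.25. The members varied together, so these are not 8 separate results. The largest estimates pointed opposite ways: Myh4 had a log2 difference of 0.92 (SE 0.80, edgeR adjusted p = 0.744) and Myh2 had -0.71 (SE 0.56, edgeR adjusted p = 0.714). Males against females showed the same pair at the ends, with Myh4 at 0.89 (SE 0.79, edgeR adjusted p = 0.699) and Myh2 at -0.84 (SE 0.56, edgeR adjusted p = 0.569). In that comparison 0 of 10 members passed, beside 233 of 25372 genes (0.918%).

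The interaction of genotype and treatment, the paclitaxel response in Chrna7-cKO minus that in WT, was above 0 for all 10 members, but passed for 0 of 10, as for 0 of 25372 genes (0%), of which 2134 had an unadjusted p under 0.05, as did 3 of the 10 members. The estimates ran from 0.40 (Mylpf, SE 0.42) to 2.39 (Myh2, SE 1.13) on the log2 scale, and the smallest edgeR adjusted p was 0.512, for Actn3 (0.74, SE 0.25) and Mb (1.32, SE 0.47). The summed level was 5.38 to 49.6 CPM (median 11.6 CPM, n = 6) in Chrna7-cKO paclitaxel and 4.34 to 18.5 CPM (median 6.45 CPM, n = 6) in Chrna7-cKO vehicle libraries. In WT it was 5.36 to 18.3 CPM (median 8.26 CPM, n = 5) with paclitaxel and 5.14 to 28.4 CPM (median 8.61 CPM, n = 6) with vehicle, and all 4 ranges overlapped. Without library 10, the highest of the Chrna7-cKO paclitaxel libraries, all 10 estimates were still above 0, with Myh2 at 1.86 and Mylpf at 0.23; with library 23 in the fit, those of Mylpf (-1.21), Actn3 (-1.21) and Atp2a1 (-0.54) were below 0. Without the filter on low counts 8 of the 10 passed, beside 366 of 41809 genes. The estimates were nearly the same and the members' median SE was 0.266, against 0.896 with the filter. Those calls rest on the smaller SEs, and why the SEs fell was not tested. The members varied together, so all 10 estimates above 0 are not 10 separate results.

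The estimates of all 10 members were lower in libraries 13-24 than in libraries 1-12, and those of Acta1 and Actn3 passed the test. The summed level was 4.34 to 11.9 CPM with a median of 6.28 CPM in 11 libraries of 13-24, and 5.72 to 49.6 CPM with a median of 14.002 CPM in the 12 libraries of 1-12, a ratio of medians of 0.448. The members' log2 fold changes had a median of -1.32, beside 0.00 over all genes tested. Of the 10, 2 passed edgeR's test at an adjusted p of 0.05, beside 1259 of 25372 genes (4.96%), and 9 had an unadjusted p under 0.05. Genes passing this comparison were many and not limited to muscle genes, and 2 of 10 is to be read beside that share.

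Acta1 was at 0.304 to 1.44 CPM with a median of 0.719 CPM in libraries 13-24, and at 0.740 to 7.94 CPM with a median of 1.88 CPM in libraries 1-12. The log2 difference between the ranges was -1.66 (SE 0.42, edgeR adjusted p = 0.0382), and 6 libraries of 1-12 lay above all of 13-24. Actn3 was at 0.935 to 1.596 CPM with a median of 1.20 CPM in libraries 13-24, and at 0.940 to 3.17 CPM with a median of 1.55 CPM in libraries 1-12. The log2 difference between the ranges was -0.46 (SE 0.12, edgeR adjusted p = 0.0323), the second smallest of the 10, and its SE was the smallest. The ranges of both genes overlapped between the number ranges.

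The largest estimate, that of Myh4, was not called: 0 to 1.55 CPM with a median of 0.294 CPM in libraries 13-24, and 0.125 to 11.6 CPM with a median of 1.35 CPM in libraries 1-12, gave a log2 difference of -2.005 (SE 0.79, edgeR adjusted p = 0.159). The same held for Tnnt3 (-1.52, SE 0.57, edgeR adjusted p = 0.138), Ckm (-1.44, SE 0.60, edgeR adjusted p = 0.188), Myh2 (-1.34, SE 0.57, edgeR adjusted p = 0.190) and Tnni2 (-1.31, SE 0.45, edgeR adjusted p = 0.108). Atp2a1 (-1.29, SE 0.45, edgeR adjusted p = 0.107), Mb (-0.71, SE 0.23, edgeR adjusted p = 0.0832) and Mylpf (-0.31, SE 0.21, edgeR adjusted p = 0.449) completed the list. For each member, 4 to 7 libraries of 1-12 were above all libraries of 13-24.

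**Figure D3:**
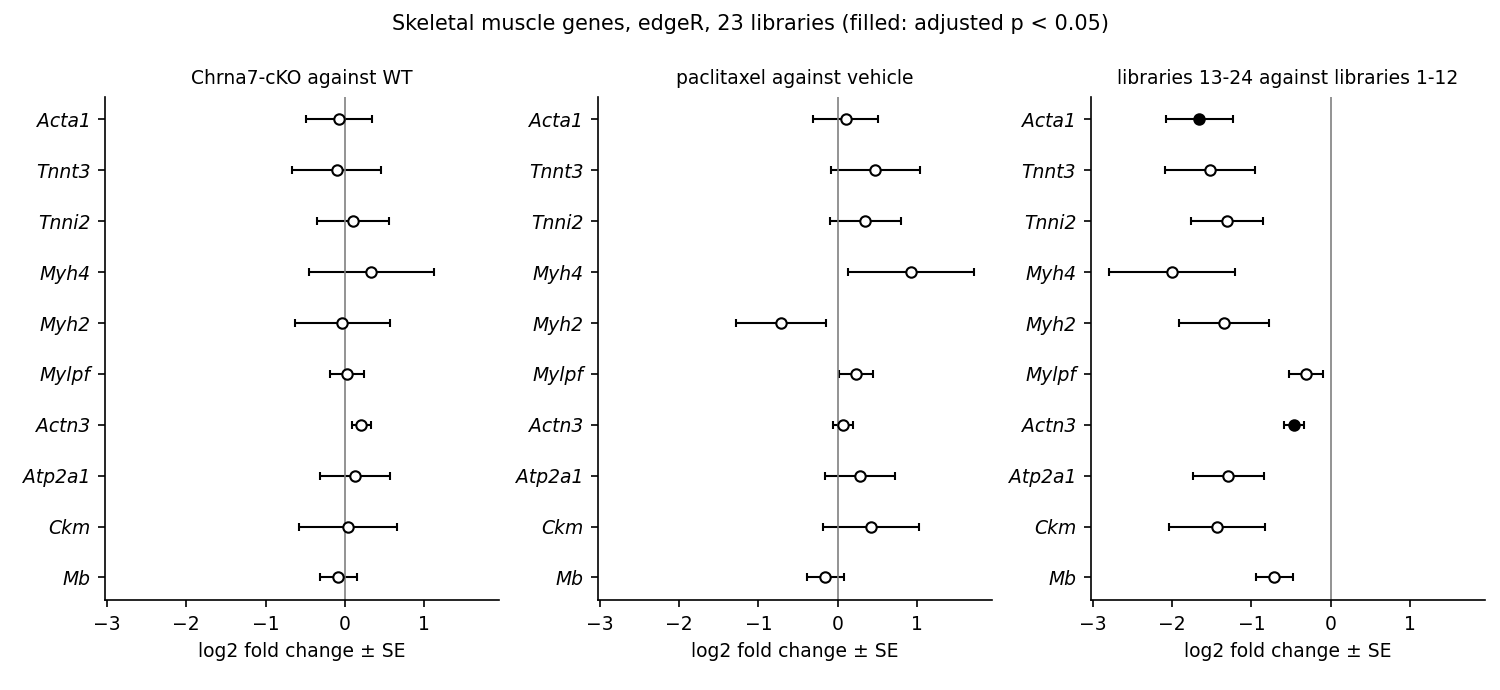
Log2 fold change (x axis, points with ± SE bars) of each gene in 3 comparisons by edgeR over 23 libraries; filled points passed an adjusted p of 0.05. Estimates for genotype lie on both sides of 0, and those for treatment lie above 0 for 8 of 10 genes. Those for libraries 13-24 against libraries 1-12 all lie below 0, with Acta1 and Actn3 filled.

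The calls for Acta1 and Actn3 did not withstand changes in the set of libraries. With library 23 in the fit, 0 of 10 members passed, as did 0 of 24725 genes, and Mylpf, Actn3 and Atp2a1 had estimates above 0. Leaving out 1 of the 23 libraries at a time left 0 to 3 members called; it was 0 without library 4, 5, 10, 15, 17, 18, 19, 21 or 24, and 1 without library 12 (Acta1) or library 7, 20 or 22 (Actn3), while without library 1 Mb passed as well. The direction was the same for all 10 members in each of these 23 fits. Calls among all genes moved as well, from 1259 of 25372 over the 23 libraries. They fell to 421 of 25297 without library 24 and 815 of 25300 without library 17. Without Chrna7-cKO male vehicle, replicate 1, they rose to 2419 of 25315. Member calls did not always follow: 486 of 25325 genes passed without library 1, and 1530 of 25282 without library 7. Whether the members lost calls beyond this wider change was not tested.

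Within each genotype the direction was also the same, for members that varied together and are not 10 separate results. Libraries 13-24 were lower than libraries 1-12 for 10 of 10 members within Chrna7-cKO (median log2 fold change -1.71) and for 10 of 10 within WT (median -0.94), with 0 members and 0 of 25372 genes called in either. Within libraries 13-24, Chrna7-cKO over WT gave a median of -0.23 with 2 of 10 members higher, and within libraries 1-12 a median of 0.36 with 10 of 10 higher. In either range 0 members passed, beside 1 of 25372 genes in libraries 13-24 and 2 of 25372 in libraries 1-12. Within libraries 13-24, where paclitaxel also means female, paclitaxel females over vehicle males gave a median of 0.27 with 9 of 10 higher. Within libraries 1-12, paclitaxel males over vehicle females gave a median of 0.22 with 6 of 10 higher. Again 0 members passed in either range, beside 37 of 25372 genes in libraries 13-24 and 516 of 25372 in libraries 1-12.

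The 3 fast myosin heavy chains stood in unlike proportions. Counted per kilobase, Myh4 made up 94.2% of the sum of Myh4, Myh1 and Myh2 in library 23, with Myh1 at 2.60% and Myh2 at 3.23%. Of the other 23 libraries, 9 had at least 100 counts over these 3 genes, and 14 had 11 to 99 counts, too few for a close reading of shares. In library 10 Myh4 made up 90.2%; its share of counts, 89.0%, had an exact 95% binomial interval of 87.2% to 90.7%. Library 7 had 87.3%, library 6 (Chrna7-cKO male paclitaxel, replicate 2) 86.2%, library 13 (WT male vehicle, replicate 1) 85.0% and library 2 had 84.7%. These 5, the highest of the 9, were all from males, and library 18 (Chrna7-cKO female paclitaxel, replicate 2) followed at 74.6%.

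The remaining 3 were mixed. In library 9 Myh4 made up 42.1%, Myh2 33.4% and Myh1 24.6%; the share of Myh4 in counts, 39.1%, had an exact 95% interval of 34.2% to 44.1%. In library 5 Myh4 made up 52.2%, Myh2 31.0% and Myh1 16.8%, and in library 4 Myh4 made up 52.2%, Myh1 37.1% and Myh2 10.7%. These 3 were all vehicle-treated females. Among the 9 libraries, the 5 from males lay at 84.7% to 90.2% and the 4 from females at 42.1% to 74.6%, but the female library 23 was above them all. The split does not hold for every library below the minimum of 100 counts, read here as shares of counts. In the male libraries 17, 16 and 21 Myh4 made up 47.5% of 59 counts (exact 95% interval 34.3% to 60.9%), 28.6% of 28 counts (13.2% to 48.7%) and 18.2% of 11 counts (2.28% to 51.8%). The other males below it were higher, with 86.9% in library 3, 84.6% in library 20, 72.7% in library 11 and 69.8% in library 24. The females below it ran from 0% in library 14 to 72.2% in library 12. The split was noticed in the values and was not tested. The intervals cover counting error only, treat each count as independent and may be too narrow.

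Among the 9 libraries with at least 100 fast myosin counts, Mb was highest where Myh2 took the largest share. It was at 2.86 CPM in library 9 and 2.24 CPM in library 5, the 2 libraries of the 9 with the largest share of Myh2, and at 0.363 CPM in library 7, where Myh4 was at 4.14 CPM. Taken as a percentage of library 23, the Mb level of library 9 was 75.8% and its Myh2 level 25.4%, while the median over the 10 members in library 9 was 5.17%. In library 10 the median member was at 8.41% of library 23, and Mb at 47.9%. The oxidative-fibre genes Mb and Myh2 were thus relatively stronger in library 9 than in library 10, and the proportions of the members differed between libraries. A high Mb percentage was not particular to library 9. Mb had the highest percentage of the 10 members in all 23 libraries, with 13.7% in library 16 against a median of 0.713%. Below 100 fast myosin counts, Myh2 took 41.5% in library 8 and 42.1% in library 21, with Mb at only 0.720 and 0.756 CPM.

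**Figure D4:**
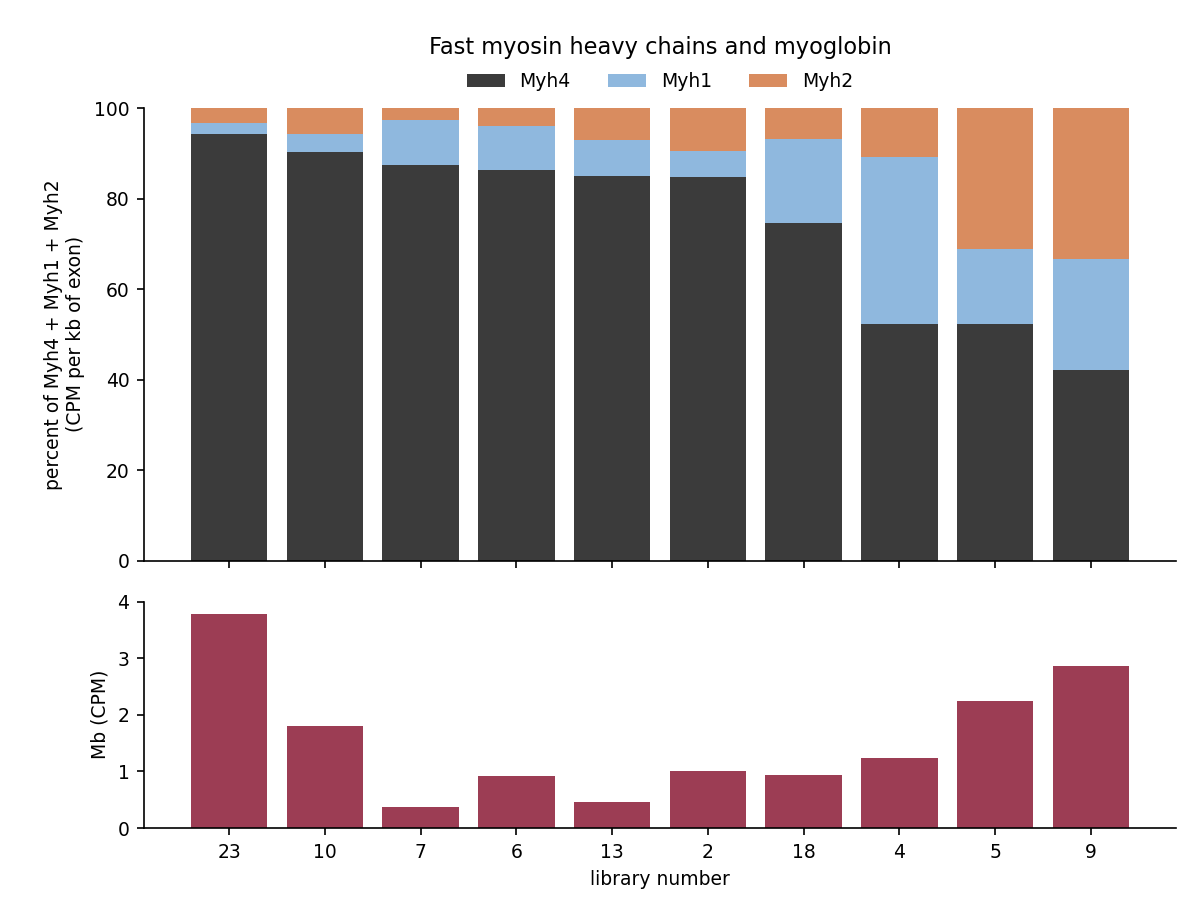
Upper panel: percentage of Myh4, Myh1 and Myh2 in their sum per kilobase of exon, in library 23 and the 9 other libraries with at least 100 counts over the 3 genes, ordered by Myh4. Lower panel: Mb in CPM in the same libraries; Myh4 falls to 42.1% in library 9, which has the most Mb of the 9 at 2.86 CPM.

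Slow-fibre genes were mostly not raised in library 23, but several were highest in library 9. Myh7, the slow myosin heavy chain, was at 0.116 CPM in library 23, and at 2.21 to 4.33 CPM in the other 23, highest in library 9. Myl2, the slow regulatory light chain, was at 0.485 CPM in library 23, and at 0.259 to 1.69 CPM in the other 23, again highest in library 9. Myl3, the slow essential light chain, and Tnnc1, the slow calcium-binding troponin, were at 0.338 and 0.823 CPM in library 23, and also had their highest levels of the other 23 in library 9, at 0.748 CPM (median 0.285 CPM) and 2.33 CPM (median 1.56 CPM). Tnnt1, the slow troponin T, was at 0.580 CPM in library 23, inside the 0.339 to 1.01 CPM of the others. Library 23 was above all others for 1 of 12 slow-fibre genes (Myoz2), against 7 of the 8 fast-fibre genes that are not members. The 7 members in the fast list were chosen for being high there and are not counted. In library 23, 7 of the 12 slow-fibre genes were below every other library, among them Tnni1 and Myl6b, with medians of 12.3 and 22.4 CPM in the other 23. The 7 fast-fibre genes include Pvalb and Tpm1, also well present in cord, so these counts do not read fibre type alone. The summed lists cannot be read as fibre type in cord: Pvalb, the calcium buffer parvalbumin that neurons also express, and Tpm1 led the fast list with medians of 106 and 148 CPM, and Atp2a2, the calcium pump of slow muscle and most other cells, led the slow list at 804 CPM. The exception in the fast list was Tnnc2, the fast calcium-binding troponin, at 0.0739 CPM in library 23; 74% of its exon bases overlap Ube2c.

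Other muscle genes were read from lists drawn up with earlier results known. In libraries 13-24 against 1-12, 1 of the 77 other genes of the 7 skeletal muscle lists passed, of which 73 had enough reads to be tested. It was Pygm, the muscle glycogen phosphorylase, lower by a log2 difference of -0.26 (SE 0.07, edgeR adjusted p = 0.0407); Pygm was at 22.95 CPM in library 23, and at 60.8 to 108 CPM in the other 23, the opposite of the members. Of the sarcomere and Z-disc genes 16 of 18 were below 0 with a median of -0.39, among them Myot (-1.99, SE 0.60, edgeR adjusted p = 0.0606), Tcap, the titin cap (-1.32, SE 0.45, edgeR adjusted p = 0.1001) and Ttn, the giant spring titin (-0.50, SE 0.19, edgeR adjusted p = 0.135). Of the excitation and calcium genes 11 of 13 were below 0 with a median of -0.27, among them Trdn (-2.11, SE 0.81, edgeR adjusted p = 0.143). Slow-fibre genes were below 0 in 11 of 12 with a median of -0.13, and energy enzymes in 7 of 13 with a median of -0.08. In the comparisons of genotype and of treatment 0 of these genes passed.

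The myogenic factors and muscle receptor genes did not all go one way: library 23 was above all others for 3 of 11, Myf6, Chrna1 and Musk. Myod1 was at 0 CPM in library 23, which allows up to 0.0317 CPM, and at 0 to 0.189 CPM in the other 23. Pax7, the satellite cell factor, was at 0.0211 CPM in library 23, and at 0.0210 to 0.267 CPM in the other 23. Myf6, the myogenic factor of mature fibres, was at 0.264 CPM in library 23, and at 0 to 0.0442 CPM with a median of 0 in the other 23. Chrna1, the alpha subunit of the muscle acetylcholine receptor, was at 2.35 CPM in library 23, and at 0.578 to 1.02 CPM in the other 23. Musk, the kinase of the neuromuscular junction, was at 3.89 CPM in library 23, and at 0.0320 to 0.533 CPM in the others.

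Markers of other tissues around the cord were read beside the members. Summed over the list, tendon genes were at 41.1 to 52.5 CPM in libraries 13-24 and 43.1 to 55.3 CPM in libraries 1-12, and bone and cartilage genes at 46.5 to 59.1 CPM in libraries 13-24 and 49.8 to 57.5 CPM in libraries 1-12. Fat genes ran over 5.89 to 28.98 CPM in libraries 13-24 and 4.24 to 19.9 CPM in libraries 1-12, and red cell genes over 146 to 899 CPM in libraries 13-24 and 146 to 1179 CPM in libraries 1-12. Of the genes of these 4 lists 0 passed the comparison of number ranges, and the same was true of the lists of heart muscle (7 of 8 higher in libraries 13-24, median 0.11), smooth muscle (6 of 7 lower, median -0.28), Schwann cells (7 of 8 lower, median -0.21) and marrow neutrophils (4 of 7 lower, median -0.20). Some cord markers did pass in it, beside 4.96% of all genes tested. Of these, 1 of 6 astrocyte, 3 of 6 oligodendrocyte, 3 of 5 inhibitory neuron and 2 of 6 microglia genes were lower in libraries 13-24. Their list medians were -0.08, -0.05, -0.15 and -0.12 on the log2 scale, well short of the members' -1.32. Of the cord motor neuron genes 0 of 6 passed, with a median of -0.10. The part of the cord markers in the members' difference was not tested.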

How the data were processed

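RNA-seq was done on L4-L6 spinal cord of 24 mice, 1 library each. The authors deposited raw counts per gene in 1 table for the series, made with featureCounts 1.6.2 on GRCm38, per the file headers; alignment with STAR (version not given in the sources used here) is per the submitters' processing notes. Counting did not use strand, per the file headers, and reads that mapped to several places or to overlapping genes were left out by its default settings. Odd values made up 34.4% to 37.3% of counts from 1 to 20, so the mates of a pair were probably counted separately. The exact 95% binomial intervals and the floors of 3 counts treat each count as independent. They cover counting error only, and with paired counts the intervals may be too narrow and the floors too low.

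CPM are counts per 1000000 of a library's total over genes. Exon lengths are those of the deposited table. Main tests used edgeR 4.0.16 (TMM factors, filterByExpr, robust quasi-likelihood fit, R 4.3.3) with a mean for each of the 8 groups over 23 libraries without library 23, contrasts that weight groups equally, and Benjamini-Hochberg adjustment over all 25372 genes tested. Likeness was Pearson's r of log2(CPM + 0.1) among genes with a mean of at least 0.1 CPM. Alternatives were all 24 libraries, DESeq2 1.42.0, RLE factors, library totals, no filter, the replicate number as a block, and leaving out each library. On simulated data with the real means and spreads, the comparison of libraries 13-24 with libraries 1-12 recovered 44 of 50 genes changed 0.25-fold. It recovered 47 of 50 changed 2-fold and 38 of 50 changed 1.5-fold, with 9 false calls among 25372 genes. The changed genes were drawn at random from all tested genes, so these rates are not those of the members. Myh4 was not called at a log2 difference of -2.005 (SE 0.79).

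The members, the lists and the separate treatment of library 23 were chosen with earlier results of these data known. Named genes are the 10 members, the 15 genes most like their mean, and genes of the marker lists with the highest mean CPM or with values beside a result; Myoz1, Myod1, Myf6, Pax7, Myl2, Myl3, Myoz2, Tnnt1, Tnnc1, Tnnc2, Chrna1 and Musk were named for their role or after their values were seen.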

Additional observations from a re-analysis of the deposited data

Results flagged for a closer look

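Dixon's test put 1 library far from the others in 17 of 40 combinations of gene and group. The groups were the 4 of genotype and treatment, with 5 or 6 libraries each and library 23 apart. The limit of that test assumes normally distributed values, but it was run on CPM without logs. The genes were also chosen for uneven levels between libraries, so no chance rate can be set beside the 17. The genes move together, so these are not 17 separate events: they belong to 4 libraries. Library 10 was far above the other 5 Chrna7-cKO paclitaxel libraries for 7 genes, with Acta1 at 7.94 CPM, Myh4 at 11.6 CPM, Ckm at 4.08 CPM, Tnnt3 at 8.29 CPM, Mb at 1.81 CPM, Myh2 at 0.894 CPM and Atp2a1 at 3.65 CPM. Library 4 was far above the other 5 Chrna7-cKO vehicle libraries for 6 genes, with Acta1 at 3.79 CPM, Myh4 at 1.78 CPM, Tnnt3 at 2.53 CPM, Tnni2 at 1.77 CPM, Mb at 1.24 CPM and Atp2a1 at 1.39 CPM. Library 7 was far above the other 4 WT paclitaxel libraries for Acta1 at 3.12 CPM, Myh4 at 4.14 CPM and Tnnt3 at 4.03 CPM. Library 9 was far above the other 5 WT vehicle libraries for Atp2a1 alone, at 3.07 CPM. These groups hold both sexes, and each of the 4 libraries is numbered 1-12.

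The paclitaxel response in males minus that in females, which is the same contrast as libraries 13-24 against libraries 1-12 with its sign turned and its size doubled, passed edgeR's test for Acta1 at 3.31 on the log2 scale (adjusted p = 0.0382) and for Actn3 at 0.92 (adjusted p = 0.0323). It cannot be told apart from the library numbers.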

How the results depend on the processing

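For libraries 13-24 against libraries 1-12, 2 members (Acta1 and Actn3) passed with TMM, RLE factors or library totals, and 3 with DESeq2, which gave no adjusted p for 6 members. With all 24 libraries 0 passed; Mylpf (0.49), Actn3 (0.52) and Atp2a1 (0.059) then turned positive on the log2 scale. Leaving out each of the 23 libraries left 0 to 3 members called: Acta1 at -1.78 to -1.38 (adjusted p 0.0277 to 0.104) lost its call in 12 fits and Actn3 at -0.52 to -0.37 (adjusted p 0.0199 to 0.0876) in 10. Without the filter on low counts 10 members passed here, beside 2181 of 41809 genes. For paclitaxel 2 passed (Myh4, Tnnt3), beside 338 of 41809 genes, and for sex 2 (Myh4, Mb), beside 749 of 41809. For the interaction of genotype and treatment 8 passed, beside 366 of 41809 genes. Fold changes were nearly the same, while the SEs for the number ranges were 0.0942 to 0.261, against 0.124 to 0.794 with the filter. The added calls rest on these smaller SEs, and why the SEs fell was not tested. In the other comparisons leaving out a library gave 0 called in every fit.

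Apart from that of Actn3 between the number ranges, which had passed, the signs that turned were of values that passed no test. With all 24 libraries Myh4 stood at -1.56 for Chrna7-cKO against WT and -1.01 for males against females, Myh2 at 0.29 for paclitaxel, and the interaction at -1.21 for Mylpf, -1.21 for Actn3 and -0.54 for Atp2a1. Leaving out 1 library moved Chrna7-cKO against WT over -0.31 to 0.78 for Myh4 and -0.41 to 0.32 for Tnnt3. It moved paclitaxel against vehicle over 0.28 to 1.37 for Myh4 and -1.19 to -0.51 for Myh2, and males against females over 0.45 to 1.52 for Myh4 and -1.32 to -0.42 for Myh2, with 0 calls. The number of genes called among all genes between number ranges was 1259, against 2376 with DESeq2, 2181 without the filter and 1891 with the replicate block. It also moved when 1 library was left out, to 421 without library 24 and 2419 without Chrna7-cKO male vehicle, replicate 1.

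With the replicate block, the same 2 members passed between number ranges and 0 in the other comparisons. The deviations of same-numbered libraries correlated at -0.0716 to 0.0914 over 77 pairs, so the replicate numbers are read as names only. The ratio of median summed levels was 0.448, against 0.451 with TMM factors and 0.496 from median log2 ratios. The Myh4 share by counts instead of per kilobase was 93.5% against 94.2% in library 23, beyond its counting interval, and within the interval in the other 5 libraries checked. These intervals may be too narrow, because mates were probably counted separately. Most members had under 100 counts in many libraries, which limits every comparison here, and in 14 libraries the counts are too few for a close reading of myosin shares.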
